A study of Mus musculus with 48 samples.

Results

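Tight junctions are the seals between neighbouring epithelial cells, and 10 genes of these junctions are described here in mouse jejunum, the stretch of small intestine between duodenum and ileum. They are the claudins Cldn8, Cldn2, Cldn3, Cldn4, Cldn7, Cldn15 and Cldn23, together with occludin (Ocln), the zonula occludens scaffold Tjp1 and the junctional adhesion molecule F11r. The members were chosen by name: a row belonged to the set when its Ensembl ID maps to one of these symbols, which gave 10 of the 55401 gene IDs in the count table. All 10 passed the filter on low counts that left 15646 genes for testing. Cldn8 did so through its knockout libraries, which held 8 to 34 counts each. Its control libraries held 0 to 9, against a minimum count set at 10.

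RNA from jejunum was sequenced in 2 genotypes and every 4 h over 1 cycle, from CT1 to CT21 (circadian time, the hour of the animals' own cycle), which gives 6 times. All groups were kept in constant darkness. The control carries floxed Bmal1 alleles (bmal1fl/fl), and the other genotype is labelled Bmal1iec-/-, where iec is the usual short form of intestinal epithelial cell in this field; it is called knockout below. Bmal1, whose symbol is Arntl, is a transcription factor of the core clock. The sources used here do not give the recombinase driver, the strain, or the age and sex of the mice. With 4 libraries per group, and 3 for knockout at CT9, 24 control and 23 knockout libraries entered the analysis. The labels do not state that every library is a separate mouse, and p-values therefore speak only of spread among these libraries, which may be technical.

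Claudins are membrane proteins whose outer loops meet those of claudins on the next cell and decide which ions and water pass between the cells. Some, such as claudin-2 and claudin-15 in the small intestine, form pores for cations and water, whereas claudin-3, claudin-4 and claudin-8 are known mainly as barrier-forming members. Claudin-8 is best known from the distal nephron and the colon. Occludin and the adhesion molecule encoded by F11r are membrane proteins of the same strands, and the Tjp1 protein links the strands to actin beneath the membrane.

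Ocln had the lowest adjusted p for a daily rhythm in control among the 10 members, so the RefSeq promoter window of that gene is shown. Windows of 250 bases before a start site were found for 8 of the 10 members (RefSeq, GRCm38.p6), and not for Cldn8 and Cldn23. The table holds 2 windows for Ocln, both on the minus strand, at chr13:100552719-100552968 and, with no match to the motifs below, at chr13:100552499-100552748. The first is printed, and capitals mark TGACCT, the reverse complement of the nuclear receptor motif AGGTCA.
Ocln: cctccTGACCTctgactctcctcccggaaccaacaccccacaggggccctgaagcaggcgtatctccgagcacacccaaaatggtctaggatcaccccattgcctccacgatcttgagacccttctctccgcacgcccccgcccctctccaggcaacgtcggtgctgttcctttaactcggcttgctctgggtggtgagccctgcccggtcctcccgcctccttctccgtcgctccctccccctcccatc

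On both strands, neither the E-box CACGTG, to which BMAL1 and its partner CLOCK bind, nor its variant CACGTT, nor the D-box forms TTATGTAA and TTACGTAA, occurred in any window of the 8 members. CACGTG was present in 6.02% of 32851 RefSeq windows of this length, CACGTT in 3.85% and a D-box form in 0.931%. AGGTCA in either strand was found in windows of Cldn4, Cldn7 and Ocln, and in 14.0% of all windows. These matches describe letters in short windows and do not show a binding site.

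Total counts were 4.34 to 6.91 M per library, with a median of 5.43 M (M, the SI prefix mega), and a count of 0 allows up to 3 counts, or 0.434 to 0.692 per M of these totals. Such floors cover counting error only. Arntl, the targeted gene, ran from 8.48 to 89.4 CPM (counts per M counts of the genes kept, after scaling) over the day in control and from 18.4 to 37.0 CPM in knockout. Control was higher at CT1, CT17 and CT21, and the ranges overlapped at CT5. Knockout was higher at CT9 (26.1 to 31.8 against 8.48 to 11.3 CPM) and CT13 (28.2 to 35.5 against 9.76 to 13.9 CPM). Counts of exons outside a deleted part can remain in such a table, and the source of the knockout counts was not tested. In 5 libraries expression was spread more widely around the median library than in the others. They are 3 of the 4 knockout libraries at CT1 (replicates 1 to 3), 1 knockout library at CT21 (replicate 4) and 1 control library at CT21 (replicate 1). Relative log2 expression had an interquartile range of 0.600 to 1.12 there, against at most 0.476 elsewhere. Their relative expression also fell with transcript length, with slopes of -0.262 to -0.108 per log2 of exon length, against -0.0547 to 0.0657 in the others. Marker lists, rhythms of the other junction genes and the genes most like Cldn8 are given with all libraries only. Member results whose call changed without these libraries are given with and without them. Without them, knockout CT1 keeps 1 library, which is assumed to vary like the other groups, and 16463 genes pass the filter.

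Cldn8 was the member that differed between genotypes over all times. Its mean level was 0.610 CPM in control and 4.05 CPM in knockout, a log2 fold change of 3.01 (SE 0.21, 95% interval 2.60 to 3.43, adjusted p = 2.01e-15, edgeR's quasi-likelihood test). It was thus 1 of 10 members that passed, and the other 9 did not, where 23.3% of all genes tested passed in either direction. Cldn8 entered this test through its knockout libraries, the group in which it is high. With no filter on low counts, its log2 fold change was 3.02 (adjusted p = 2.57e-22, edgeR's quasi-likelihood test), and 2983 genes were called. Cldn8 lies at chr16:88560828-88563183 on the minus strand (mm10) and is a single exon of 2.356 kb.

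The counts behind Cldn8 were small in control. At CT1 the control libraries held 5, 9, 5 and 9 counts and the knockout libraries 11, 29, 8 and 33. At CT5 there were 4, 5, 5 and 4 counts in control against 26, 21, 26 and 18 in knockout. The groups of CT5 did not overlap, whereas at CT1 the knockout library with 8 counts (1.73 CPM) fell below the highest control library (1.88 CPM).

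At CT9 control libraries held 0, 0, 2 and 2 counts of Cldn8, and knockout libraries 31, 32 and 34. At CT13 they held 1, 1, 2 and 0 in control and 12, 20, 24 and 23 in knockout. Control was at its lowest at these times, and the knockout mean was at its highest at CT9. At CT17 the counts were 1, 3, 4 and 2 in control and 22, 26, 16 and 21 in knockout. At CT21 they were 3, 7, 3 and 0 in control and 16, 26, 21 and 9 in knockout. In all, 77 reads in 24 control libraries stood against 505 in 23 knockout libraries, and 14 control libraries held at most 3 reads.

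Knockout exceeded control without overlap at 5 of the 6 times; 0.62% of all genes tested did so at 5 or more times. The genotype effect on Cldn8 passed at every time and was largest at CT9, with a log2 fold change of 4.85 (SE 0.57, adjusted p = 5.25e-08), and at CT13, with 4.10 (SE 0.58, adjusted p = 3.03e-06). It was 1.63 at CT1 (SE 0.42, adjusted p = 0.00596) and 2.33 at CT5 (SE 0.44, adjusted p = 0.00166). In the later part of the cycle it was 2.86 (CT17, SE 0.49, adjusted p = 0.000259) and 2.30 (CT21, SE 0.48, adjusted p = 0.00436). Over all genes, 20.7% passed at CT1 and 0.837% at CT5, then 3.6% (CT9), 3.39% (CT13), 2.09% (CT17) and 1.43% (CT21). With so few counts a fitted fold moves with the prior count used, so ratios of pooled counts per M are given too. The ratio was 33.5 at CT9 (95% counting interval 12.7 to 125.4) and 18.8 at CT13 (7.06 to 70.7). It was 2.72 for CT1 (1.75 to 4.34), 4.97 for CT5 (2.98 to 8.77), 7.84 for CT17 (4.06 to 17.0) and 5.01 for CT21 (2.75 to 9.86). Without the 5 libraries above, the effect over all times was 3.13 (SE 0.19, adjusted p = 1.26e-16) and that at CT1 was 2.17 (adjusted p = 0.0386). In fits restricted to the 2 groups of a time, Cldn8 missed the threshold at CT1 (adjusted p = 0.0554) and CT21 (adjusted p = 0.243).

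**Figure D1:**
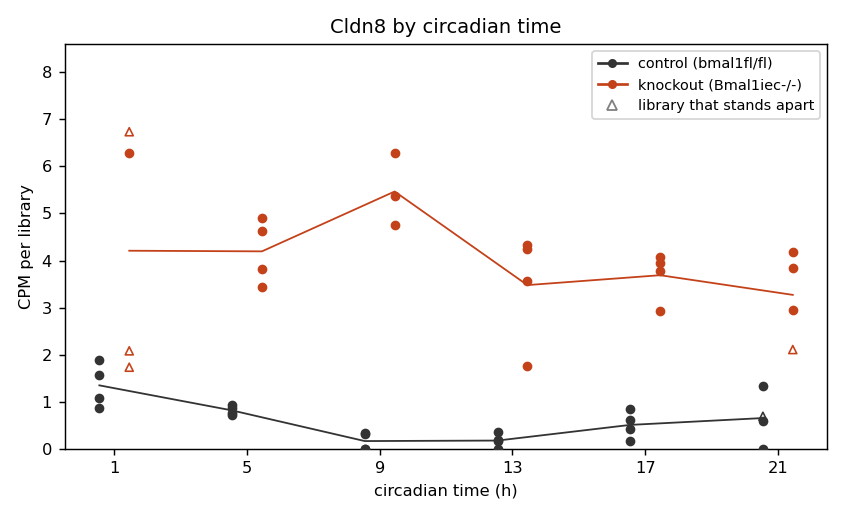
Level of Cldn8 in CPM (vertical axis) by circadian time in hours (horizontal axis), with a point for each library and a line through the group means of control and knockout. Control libraries span 0 to 1.88 CPM and knockout libraries 1.73 to 6.74 CPM, and the groups overlap at CT1 alone.

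In control, Cldn8 followed a 24-h cosine with an amplitude of 1.34 on the log2 scale from mid-level to peak (SE 0.27, peak at CT0.52, adjusted p = 0.000691). That fit rests on 0 to 9 counts per control library, for a gene kept by the filter through its knockout libraries. In knockout the fitted amplitude was 0.25 (SE 0.15, adjusted p = 0.427). The rhythm differed between genotypes (amplitude difference -1.09, adjusted p = 0.0186), as it did for 1.5% of all genes tested, and Cldn8 was the single member for which it did. The difference missed the threshold without control CT1 replicate 4 (adjusted p = 0.0545) and in limma-voom (adjusted p = 0.1); without the 5 libraries it was called (adjusted p = 0.0288). The test of any difference of the genotype effect between the 6 times gave an adjusted p of 0.0977, where 1.18% of genes passed. It passed in DESeq2 (adjusted p = 0.0122) and on leaving out knockout CT1 replicate 2 (0.0443), knockout CT1 replicate 4 (0.0378), knockout CT21 replicate 4 (0.0422) or control CT21 replicate 4 (0.0386).

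By Pearson correlation of log2 CPM over the 12 group means, the genes most like Cldn8 were D830030K20Rik (0.966), Reg3a (0.962), Eefsec (0.953), Fbxl21 (0.952) and Mroh7 (0.950). These correlations are descriptions. Each of these genes had a higher fitted level in knockout (log2 fold change 1.21 to 3.53), so the step between genotypes enters every correlation. Reg3a, which encodes an antimicrobial lectin of the gut, was far more abundant than Cldn8, at 250.1 CPM in control and 570.5 CPM in knockout. Fbxl21, an F-box protein gene that acts on clock proteins, was at 2.79 CPM in control and 7.19 CPM in knockout. The nearest tested genes beside Cldn8 on the chromosome were Bach1, 827482 bases before it (log2 fold change -0.07, adjusted p = 0.67), and Tiam1, 1223928 bases after it (-0.23, adjusted p = 0.0801).

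Since Cldn8 is known from the colon, markers of colon epithelium were read beside it. Of 12 markers, 6 passed the filter on low counts; the water channel Aqp8 rose from 1.14 to 20.9 CPM (4.80 on the log2 scale, SE 0.27, adjusted p = 1.98e-17), and the carbonic anhydrase Car4 fell (-0.48, SE 0.11, adjusted p = 0.000583). The other 4 tested did not pass, where 23.3% of all genes tested passed in either direction. Of the 6 below the filter, Scnn1g was at 0 in every library. The summed level of the 6 tested was 254.7 to 467.7 CPM in control libraries and 254.8 to 470.1 CPM in knockout libraries. Slc26a3 (mean 182.1 CPM in control) and Car4 (136.5 CPM) weigh most in this sum, which therefore says little of Aqp8. The part of such cells in the Cldn8 result was not tested.

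The pore-forming claudins Cldn2 and Cldn15 did not pass over all times. Cldn2, at chrX:139800828-139811386, ranged from 56.1 to 120.3 CPM over control libraries (median 75.7) and from 56.0 to 101.8 over knockout libraries (median 76.4). The ranges overlapped at all 6 times, and the log2 fold change was 0.02 (SE 0.062, 95% interval -0.10 to 0.15, adjusted p = 0.833). None of the single times passed for Cldn2, the largest difference being 0.37 at CT17 (SE 0.15, adjusted p = 0.264).

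Cldn15, at chr5:136966616-136975858, had a median of 617.2 CPM in control and 586.7 CPM in knockout, and over all times its log2 fold change was -0.06 (SE 0.049, 95% interval -0.15 to 0.04, adjusted p = 0.44). At CT1 the control libraries were at 537.4, 619.7, 606.2 and 606.2 CPM and the knockout libraries at 901.2, 754.2, 871.3 and 685.5 CPM. All knockout values were above all control values there, as for 9.18% of genes, and the first 3 are libraries that stand apart. The difference at CT1 passed (0.44, SE 0.12, adjusted p = 0.00814), but not without the 5 libraries (0.17, adjusted p = 0.606), without knockout CT1 replicate 1 (0.36, adjusted p = 0.0525) or in the fit of the 2 CT1 groups alone (adjusted p = 0.09).

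At CT9 the direction for Cldn15 was the opposite, with 649.2, 696.2, 566.8 and 633.6 CPM in control and 502.4, 527.1 and 537.9 CPM in knockout. At CT13 the control libraries were at 629.4, 614.8, 597.1 and 592.9 CPM and the knockout libraries at 513.2, 541.5, 539.2 and 586.7 CPM. Knockout was below control without overlap at both times, as for 5.73% of all genes at CT9 and 5.89% at CT13. No library of these groups stands apart. The differences of -0.28 at CT9 (SE 0.13, adjusted p = 0.313) and -0.16 at CT13 (SE 0.12, adjusted p = 0.611) did not pass. With the 5 libraries left out, Cldn15 was lower in knockout over all times (-0.12, SE 0.037, adjusted p = 0.0185; 21.4% of genes called) and at CT9 (-0.28, adjusted p = 0.0358; 6.25% called).

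**Figure D2:**
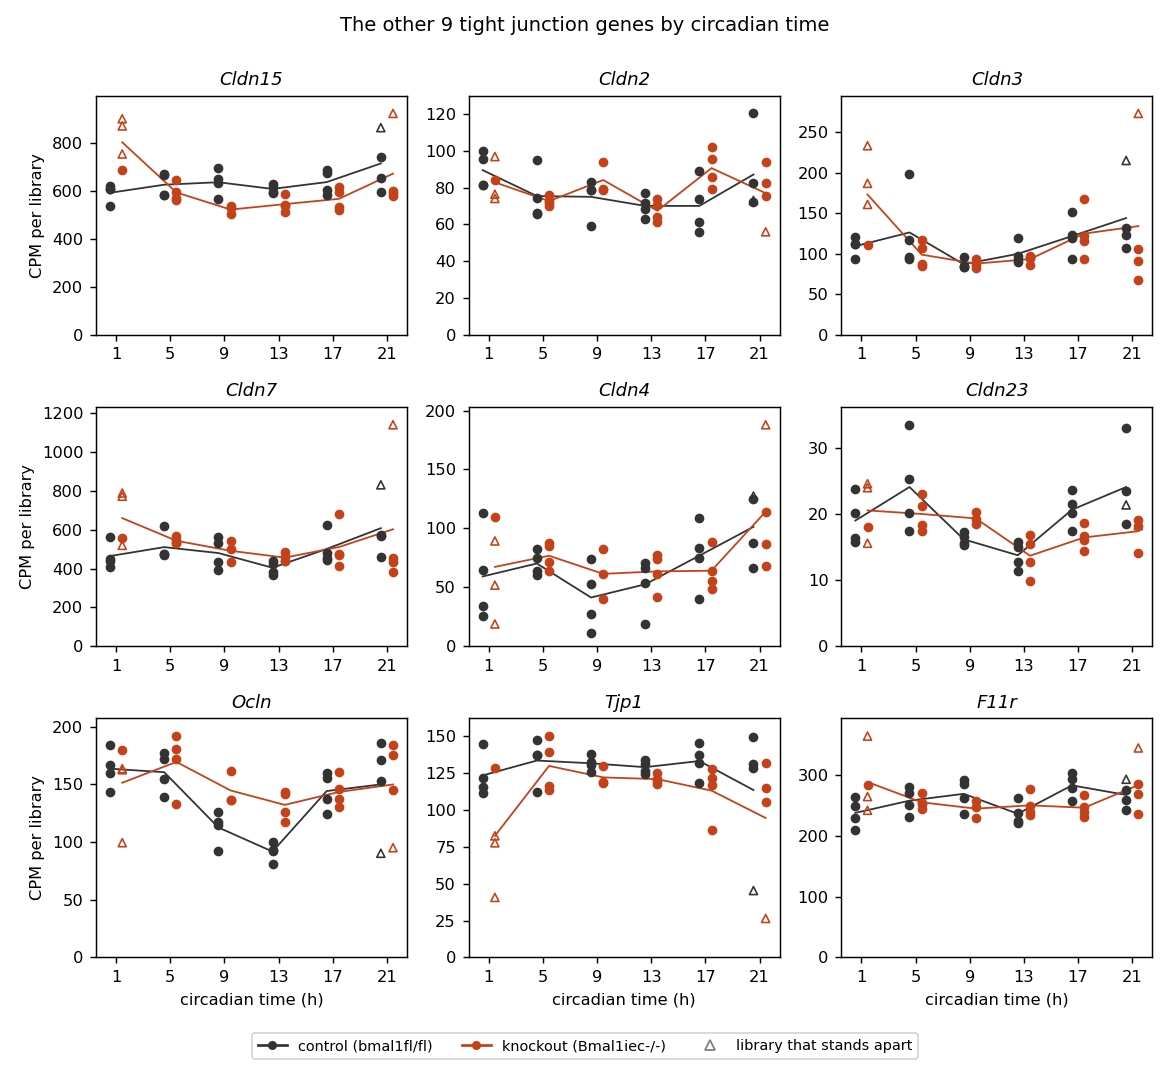
Level in CPM (vertical axis) by circadian time in hours (horizontal axis) for the 9 members other than Cldn8, a panel for each, with a point for each library and lines through the group means. Libraries that stand apart have their own marker; Tjp1 drops to 26.5 CPM in knockout CT21 replicate 4, where Cldn15 reaches 923.4 CPM.

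Cldn3 and Cldn4, named above with Cldn8 as barrier-forming, did not pass over all times, and neither did Cldn7. Cldn3, at chr5:134986214-134987472, ranged from 83.2 to 214.9 CPM over control libraries (median 109.2) and from 67.0 to 272.9 CPM over knockout libraries (median 97.4). The highest values in both genotypes were in libraries that stand apart, and the log2 fold change of 0.03 (SE 0.11, 95% interval -0.20 to 0.25, adjusted p = 0.9) became -0.14 (adjusted p = 0.26) without them. The annotated exons of Cldn3 share 40 bases with the antisense gene Wbscr25, and the sources used here do not give the strand setting of the counting.

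Cldn4, at chr5:134945119-134946934, varied widely between libraries of a group. At CT9 its mean was 41.3 ± 27.6 CPM in control (SD, n = 4) and 61.4 ± 21.1 CPM in knockout (SD, n = 3). Its log2 fold change over all times was 0.18 (SE 0.19, 95% interval -0.21 to 0.57, adjusted p = 0.543). Cldn7, at chr11:69964779-69967885, had medians of 462.6 CPM in control and 501.9 CPM in knockout (log2 fold change 0.14, SE 0.088, 95% interval -0.04 to 0.31, adjusted p = 0.278). The fold change of Cldn7 was 0.04 without the 5 libraries (adjusted p = 0.725) and 0.05 without knockout CT21 replicate 4 alone (adjusted p = 0.619). Its highest values were 831.4 CPM in control CT21 replicate 1 and 1141 CPM in knockout CT21 replicate 4, both libraries that stand apart.

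Cldn23, at chr8:35824712-35826559, was the least abundant member after Cldn8. Its control libraries ranged from 11.5 to 33.6 CPM (median 17.9) and the knockout libraries from 9.80 to 24.6 CPM (median 18.2). The log2 fold change over all times was -0.12 (SE 0.075, 95% interval -0.27 to 0.04, adjusted p = 0.281). At CT9 the values were 17.4, 15.3, 15.7 and 16.5 CPM in control and 19.2, 18.6 and 20.3 CPM in knockout. These did not overlap, as for 6.61% of genes with knockout higher at CT9, and the difference did not pass (0.26, SE 0.19, adjusted p = 0.737).

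Ocln, at chr13:100496507-100552718, was rhythmic in control, with its lowest group mean at CT13 (91.8 CPM). At CT9 the control libraries were at 125.7, 115.0, 92.6 and 117.2 CPM and the knockout libraries at 136.2, 136.4 and 161.5 CPM. At CT13 they were at 93.1, 81.1, 92.5 and 100.4 CPM in control and at 117.6, 143.7, 141.3 and 126.2 CPM in knockout. Every knockout library was above every control library at both times, as for 6.61% of genes at CT9 and 7.78% at CT13. At CT1 the means were close, 163.6 ± 16.7 CPM in control (SD, n = 4) and 151.4 ± 35.5 CPM in knockout (SD, n = 4).

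The log2 fold change of Ocln was 0.36 at CT9 (SE 0.18, adjusted p = 0.432), 0.53 at CT13 (SE 0.17, adjusted p = 0.0855) and 0.14 over all times (SE 0.071, 95% interval -0.00 to 0.28, adjusted p = 0.148), none of which passed. Without the 5 libraries that stand apart, Ocln was higher in knockout over all times (0.17, SE 0.050, adjusted p = 0.00901), at CT9 (0.37, adjusted p = 0.0432) and at CT13 (0.52, adjusted p = 0.00101; 7.01% of genes called). The call at CT13 was also made on leaving out control CT21 replicate 1 or knockout CT21 replicate 4 alone, and in the fit of the 2 groups of CT13. In the control CT21 library that stands apart Ocln was at 90.3 CPM, against 152.9 to 185.6 CPM in the other 3, and in the knockout CT21 library it was at 95.1 CPM, against 144.8 to 184.5 CPM.

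Tjp1, at chr7:65296165-65527781, has the longest exon sequence of the set, 7.811 kb. Its control libraries ranged from 45.4 to 149.5 CPM (median 131.1) and its knockout libraries from 26.5 to 150.1 CPM (median 118.1). The lowest were again libraries that stand apart: 45.4 CPM in control CT21 replicate 1, 26.5 CPM in knockout CT21 replicate 4, and 77.8, 82.5 and 40.7 CPM at knockout CT1, where the remaining library was at 128.8 CPM. The log2 fold change was -0.22 (SE 0.11, 95% interval -0.45 to 0.01, adjusted p = 0.168). It passed on leaving out control CT21 replicate 1 alone (-0.26, adjusted p = 0.0482), and was -0.11 (adjusted p = 0.0792) without all 5. In the same 5 libraries, Cldn3 was at 160.7 to 272.9 CPM and Cldn15 at 754.2 to 923.4 CPM, while Tjp1 was at 26.5 to 82.5 CPM; the part of transcript length in the member values was not tested.

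F11r, at chr1:171437535-171464603, encodes a membrane protein of the immunoglobulin family. Its control libraries ranged from 209.0 to 303.5 CPM (median 259.8) and its knockout libraries from 229.7 to 363.4 CPM (median 251.8). The log2 fold change was 0.02 (SE 0.045, 95% interval -0.08 to 0.11, adjusted p = 0.845), and its sign turned under upper-quartile scaling and without the 5 libraries. None of the 6 times passed for F11r in edgeR's test. At CT1 its log2 fold change was 0.28 (SE 0.11, adjusted p = 0.0612). DESeq2 called F11r there, with 3 members and 3472 genes called in all.

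**Figure D3:**
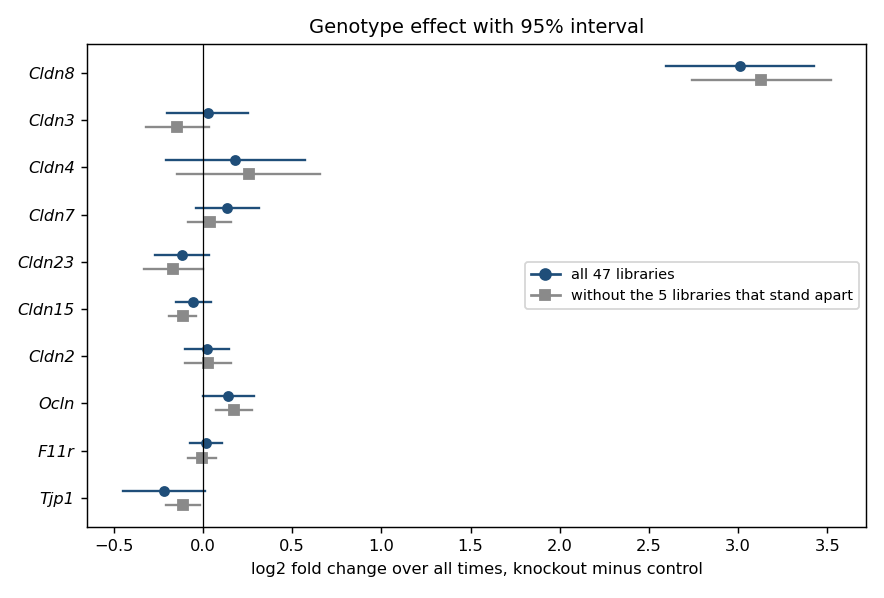
Log2 fold change over all times, knockout minus control (horizontal axis), with its 95% interval for each of the 10 members (vertical axis), from all 47 libraries and without the 5 that stand apart. Cldn8 is at 3.01 and 3.13; the other members lie within 0.3 of 0. Without these libraries the unadjusted intervals of Ocln, Cldn15, Cldn23 and Tjp1 leave out 0, of which Ocln and Cldn15 have an adjusted p under 0.05.

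Compared per kb of exon sequence, the members spanned a wide range of levels. In control the means were 299.4 CPM per kb for Cldn15, 253.9 for Cldn7, 96.9 for F11r, 91.1 for Cldn3, 36.8 for Cldn4, 32.5 for Ocln, 23.4 for Cldn2, 16.3 for Tjp1, 10.6 for Cldn23 and 0.259 for Cldn8. In knockout the order was the same, from 290.7 CPM per kb for Cldn15 to 1.72 for Cldn8. Neighbours in this order had overlapping library ranges, with 2 exceptions: the lowest library of Cldn7 (188.6 CPM per kb) was above the highest of F11r (136.5), and the lowest of Cldn23 (5.30) was above the highest of Cldn8 (2.86). Cldn8 thus remained the least abundant member in knockout.

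**Figure D4:**
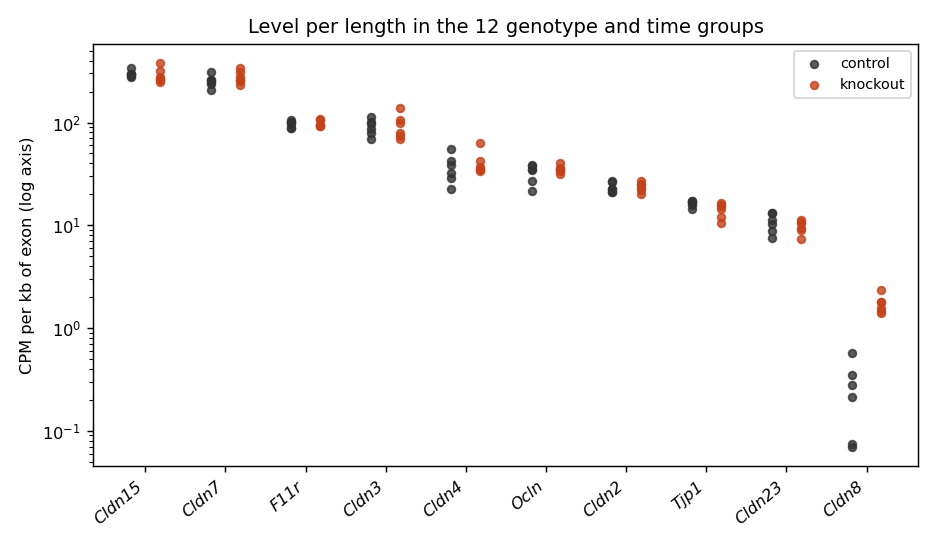
Level per kb of exon sequence (CPM per kb, log axis) of the 10 members, with a point for the mean of each genotype and time group. Cldn15 and Cldn7 lie at the top and Cldn8 at the bottom in both genotypes.

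Daily rhythms were called for 3 of the 10 members in control, where 20.5% of genes tested passed, and for 2 in knockout, where 14.6% passed. In control these were Cldn8, Ocln (amplitude 0.38, SE 0.074, peak at CT0.21, adjusted p = 0.000656) and Cldn23 (0.31, SE 0.085, peak at CT23.79, adjusted p = 0.0206). Their fitted peaks lay near the same hour. For Cldn23 the hour comes from the cosine, as its control means were 24.1 CPM at CT21, 19.0 at CT1 and 24.1 at CT5. The Cldn23 call was lost without control CT13 replicate 1 (adjusted p = 0.0566) or replicate 2 (adjusted p = 0.0507). Ocln had an amplitude of 0.13 in knockout (adjusted p = 0.386), and the difference between the genotypes was not called (adjusted p = 0.427). With the 5 libraries left out, Ocln was rhythmic in both, with amplitudes of 0.42 (adjusted p = 7.18e-08) and 0.23 (adjusted p = 0.0275), and 29.0% and 10.4% of genes passed. In the same fit Cldn2 was rhythmic in control too (amplitude 0.19, adjusted p = 0.0446), which made 4 members with a control rhythm; with all libraries its amplitude was 0.17 (adjusted p = 0.109).

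The knockout rhythms were those of Cldn15 (amplitude 0.27, adjusted p = 0.00164) and Cldn3 (0.45, adjusted p = 0.0219). Their fitted peaks, at CT23.81 and CT22.47, lie between CT21 and CT1, the times that hold the 4 knockout libraries that stand apart. Without the 5 libraries neither passed, with amplitudes of 0.12 for Cldn15 (adjusted p = 0.103) and 0.13 for Cldn3 (adjusted p = 0.624). The Cldn3 call was also lost without knockout CT21 replicate 4 (adjusted p = 0.092) or knockout CT1 replicate 3 (adjusted p = 0.0507).

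Other junction genes were read from lists, beside 12.2% of all genes tested that were higher in knockout over all times and 11% that were lower. A place in a list does not show that the protein is part of the junction. Of 18 further claudin family genes in the table, 15 were below the filter and 3 of those (Cldn17, Cldn22 and Cldn24) were at 0 in every library. Of the 3 tested, Cldnd1 rose (log2 fold change 0.19, adjusted p = 0.0222; 0.0537 without knockout CT9 replicate 4), and Cldn5 (0.10) and Cldn12 (0.05) did not pass. Of 13 further membrane proteins, 3 rose and none fell: the tetraspanin Tspan8 (0.34, SE 0.056, adjusted p = 7.14e-06), Igsf5 (0.18, adjusted p = 0.0276) and the tricellular junction protein gene Lsr (0.18, adjusted p = 0.0208). Without the 5 libraries Igsf5 (adjusted p = 0.183) and Lsr (adjusted p = 0.174) were not called. Igsf5 also missed the threshold without control CT13 replicate 1 (0.0518) or control CT9 replicate 3 (0.0504), and Lsr without knockout CT9 replicate 2 (0.0523).

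Of 27 scaffold, polarity and regulator genes, 5 rose and 2 fell. Among those that rose were the scaffold gene Tjp3 (0.20, adjusted p = 0.0181), the small GTPase Rab13 (0.34, adjusted p = 0.0176), the kinase Wnk4 (0.27, adjusted p = 0.0365) and the polarity kinase Prkcz (0.12, adjusted p = 0.0485). The polarity genes Mpp5 (-0.28, adjusted p = 0.0104) and Pard3 (-0.15, adjusted p = 0.0195) were lower. Prkcz and Pard3 fall outside the rule for named genes and were named after their values were seen. Their calls were not followed through the alternatives or the fits that leave out a library. Rab13 (adjusted p = 0.0612) and Tjp3 (adjusted p = 0.136) were not called without the 5 libraries, and Wnk4 lost its call in 15 of the 47 fits that leave out a library, under upper-quartile scaling (adjusted p = 0.0613) and in limma-voom (adjusted p = 0.0578). With no filter on low counts, Igsf5 (adjusted p = 0.0512) lost its call. Of 16 adherens junction and desmosome genes, the cadherin Cdh17 rose (0.16, adjusted p = 0.0287; lost in 14 of the 47 fits, and with no filter at adjusted p = 0.0586). The median log2 fold changes of the lists were 0.10, 0.02, -0.01 and 0.07 in this order, beside 0.02 for the 10 members and -0.01 for all genes tested, whose middle 50% ran from -0.14 to 0.11.

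**Figure D5:**
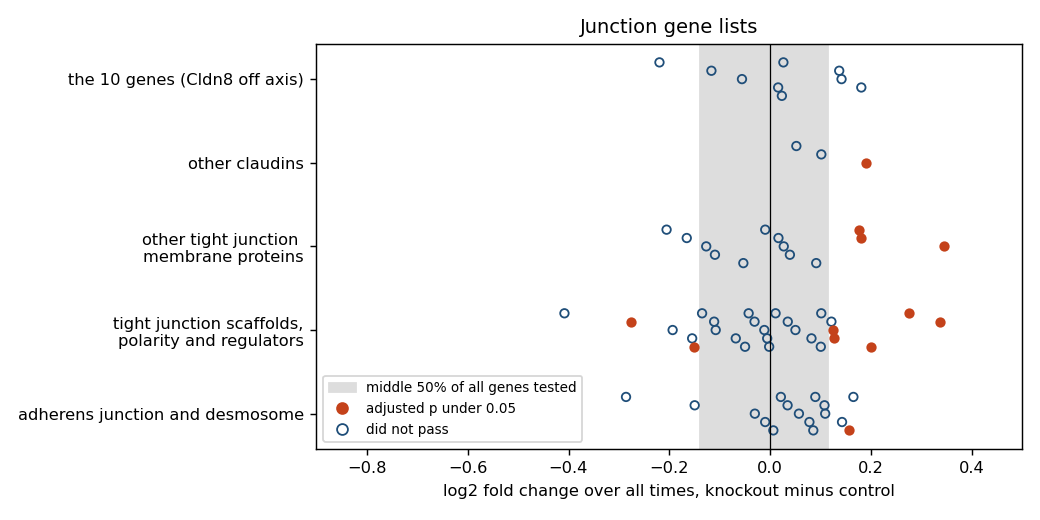
Log2 fold change over all times, knockout minus control (horizontal axis), of each tested gene of the junction lists (rows), with filled points for adjusted p under 0.05; the grey band holds the middle 50% of all genes tested. Cldn8, at 3.01, is off the axis, and the genes that passed lie between -0.28 and 0.34.

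Rhythms in control were called for 8 of the 27 scaffold, polarity and regulator genes and for 1 of them in knockout (Prss8), where 20.5% and 14.6% of all genes tested passed. Among the 8 was Mpp5 (amplitude 0.37, adjusted p = 0.00113; 0.14 in knockout, adjusted p = 0.38). The rhythm difference, which passed for 1.5% of all genes, passed for the protease gene St14 (adjusted p = 0.0491) and not for Mpp5 (adjusted p = 0.641).

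In whole tissue, fewer cells of a type and less RNA per cell cannot be told apart, so marker lists are given beside the members. Of all genes tested, 12.2% were higher in knockout over all times and 11% were lower. Of 6 epithelial markers, 1 rose (Cdh17) and none fell, and their summed level was 8612 to 13130 CPM in control, against 9657 to 17120 CPM in knockout. Of 10 villus enterocyte markers 3 rose and 3 fell, and of 10 crypt and proliferation markers 1 rose and 1 fell. All 8 lymphocyte markers fell, with a median log2 fold change of -1.28, and their summed level was 764.3 to 1329 CPM in control, against 362.6 to 1237 CPM in knockout. Jchain (mean 676 CPM in control, 490.1 CPM in knockout) weighs most in this sum and changed least (-0.48). The others ran from -0.71 (Ptprc) to -1.64 (Gzmb), so the sum says little of them. Of 8 endothelial markers 3 fell, of 7 enteroendocrine and tuft markers 3 rose, and of 6 smooth muscle and 7 neuronal and glial markers none passed. Of 9 goblet and Paneth markers 1 rose, of 5 fibroblast markers 1 fell, and of 2 pancreatic acinar markers tested none passed. The part of these cells in the member values was not tested.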

How the data were processed

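The authors deposited raw read counts per gene, 1 library per column, not normalized. Per the labels' protocols, libraries were made with a stranded poly(A) kit (TruSeq). Genome mm10, STAR 2.7.5c and featureCounts 1.4.6 are named in the submitters' processing notes. The sources used here do not give the settings for strand or for multiply mapped reads. Of 48 labelled samples 47 had a column; knockout CT9 replicate 1 was not analysed here. Replicate numbers follow accession order and pair nothing. Symbols and exon lengths came from GENCODE (mm10): of 55401 IDs, 54349 matched with version, 792 without and 260 not.

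The counts were fitted with edgeR 4.0.16 (R 4.3.3): filterByExpr on 12 groups (minimum count 10, total 15, smallest group 3), TMM scaling, a robust quasi-likelihood fit of 12 group means (35 residual degrees of freedom), and a 24-h cosine and sine per genotype (41 residual degrees of freedom). The contrasts were knockout minus control over all times and at each time, their difference between times, and the rhythms. P-values were Benjamini-Hochberg adjusted over 15646 genes, with a threshold of 0.05. CPM are counts per M counts of the genes kept, TMM-scaled; SE is the log2 fold change divided by the root of F. Libraries whose relative log2 expression had an interquartile range above 0.5 were said to stand apart, a limit chosen after seeing the data. Over 69 pairs of libraries within a group, chi-square per degree of freedom was at least 3.23, so none was counted as a duplicate. The scripts were tested on simulated data.

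The members and gene lists were chosen with earlier results of these data known. All members are named; of each other junction list, the 4 with the largest change among those that passed; and the 5 genes most like Cldn8. Alternatives were RLE and upper-quartile scaling, no filter, limma-voom (limma 3.58.1), DESeq2 1.42.0, fits of 2 groups, a test of any difference between times, and each library left out. Results of 1 listed gene are not reported here by name.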

Additional observations from a re-analysis of the deposited data

Results flagged for a closer look

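The 24-h amplitude of Cldn8 differed between genotypes, with knockout minus control at -1.09 on the log2 scale (adjusted p = 0.0186, edgeR's test of the rhythm difference, which covers amplitude and peak time together). The difference missed the threshold in limma-voom (adjusted p = 0.1) and, in edgeR's test, without control CT1 replicate 4 (adjusted p = 0.0545). Of 24 control libraries, 14 held at most 3 reads of Cldn8.

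In 5 of 110 groups of 4 libraries, over the 10 members, a single library lay far from the other 3; chance gives about 5%. Cldn3 in control CT9 replicate 1 was at 96.4 CPM, against 83.2 to 84.3 CPM in the others. Cldn7 in control CT5 replicate 1 was at 621 CPM, against 468 to 477 CPM. Cldn15 in control CT1 replicate 1 was at 537 CPM, below the 606 to 620 CPM of the others. In knockout CT21 replicate 4, a library that stands apart, Cldn7 was at 1140 CPM, against 381 to 454 CPM, and Cldn15 at 923 CPM, against 577 to 598 CPM.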

How the results depend on the processing

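No paired analysis was possible because the labels carry no replicate numbers, and accession order pairs nothing. The rise of Cldn8 over all times was called under every alternative run. RLE scaling changed none of the calls followed for the members and for the junction genes named by the rule. It moved no count of genes by over 1.5 times. The sign of F11r turned under upper-quartile scaling (-0.0017) and without the 5 libraries that stand apart (-0.0052), which also turned Cldn3 (-0.14). With no filter, 2097 genes were called at CT1, 349 at CT13 and 196 at CT17. In limma-voom 1 member was rhythmic in knockout and 0 differed in rhythm; the test of any difference between the 6 times gave the same 1 and 0. DESeq2 called F11r at CT1, and 2 members (Cldn8, Cldn15) and 388 genes for a genotype effect that differs between times. In fits of only the 2 groups of a time, 0 members and 1021 genes were called at CT1, 205 genes at CT5, 2 members and 1166 genes at CT13, 535 genes at CT17, and 0 members and 46 genes at CT21. Without the 5 libraries, 3 members were called over all times, 1 member and 40 genes at CT1, 282 genes at CT5, 3 members and 1029 genes at CT9, 2 members and 1154 genes at CT13, 835 genes at CT17, and 1 member was rhythmic in knockout. The fits of 2 groups and those without the 5 libraries hold fewer samples; otherwise the cause was not tested.

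Over the 47 fits that each leave out 1 library, called members numbered 1 to 2 over all times, 1 to 6 at CT1 (the 6 without knockout CT21 replicate 4), 1 to 2 at CT13, 0 to 2 for the difference between times, 1 to 3 for knockout rhythm and 0 to 1 for the rhythm difference. Called genes numbered 3360 to 4327 over all times, 1319 to 4541 at CT1, 69 to 156 at CT5 and 258 to 761 at CT9. They numbered 327 to 680 at CT13, 191 to 437 at CT17 and 129 to 364 at CT21. For the difference between times they numbered 129 to 681, for knockout rhythm 1673 to 3600 and for the rhythm difference 185 to 308. The count of 6 members at CT1 is not set beside the genes called in that same fit. The fold change of Cldn3 ranged from -0.076 to 0.071, and that of F11r from -0.0068 to 0.029. At these depths the control level of Cldn8 rests on 0 to 9 counts per library.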
